A study of Saccharomyces cerevisiae with 3 samples.

Results

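The 33 genes described here encode the heat shock chaperones of the yeast cytosol and mitochondria, their cochaperones, a stress protein of the plasma membrane (HSP30) and the regulator HSF1. They were chosen by gene symbol from the annotation of the array, and all 33 were measured, each by 2 spots, among 5539 genes in all. Total RNA of a Saccharomyces cerevisiae strain labelled YAP1 mutant, a yap1 deletion mutant per the series title, was set against wild-type RNA on each of 3 two-colour arrays. Both strains had been exposed to 1.0 mM As(III), or arsenite, the trivalent form of arsenic, for 1 h, and the design asks how transcripts differ without YAP1 under arsenite. No unstressed sample was part of the design, so the response of these genes to arsenite itself was not measured. Every array had the mutant in Cy5 and the wild type in Cy3, so dye and genotype cannot be told apart. The labels name neither the strain background nor separate cultures, so the spread between arrays that the p-values rest on may be only technical.

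Heat shock proteins bind unfolded proteins. Hsp70 works in cycles driven by ATP with J-domain partners (Hsp40) and nucleotide exchange factors, Hsp90 acts later on selected clients with its own cochaperones, and Hsp104 pulls proteins out of aggregates together with Hsp70. Mitochondria have their own Hsp70, Hsp60 and Hsp100 proteins. In yeast most of these genes are controlled by the heat shock factor Hsf1, some also by the stress factors Msn2 and Msn4, and arsenite is known to unfold and aggregate newly made proteins. Yap1 is a bZIP transcription factor that responds to oxidants and arsenicals.

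Values are log2 ratios, likely mutant over wild type, after a loess curve of ratio on signal was subtracted within each array. A value of -1 is a 2-fold lower signal in the mutant channel. No direction of the ratio comes with the values. It was taken from the dye labels, the sample titles and YAP1 itself (YML007W), which was below 0 on all 3 arrays (-0.30, -1.21 and -1.05). Its mean of -0.85 ± 0.19 (SE, n = 3 arrays) did not pass the test (limma, adjusted p = 0.0751), and which part of the gene its spots cover was not used here. A gene passed when its p, adjusted by Benjamini-Hochberg over all 5539 genes, was under 0.05.

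One of the 33 genes passed. HSP30 fell 2.05-fold, and no other of the 33 genes fell or rose by limma's test. That is 1 of 33 lower against 1.64% of all genes tested, and 0 of 33 higher against 0.343%. At an unadjusted p under 0.05, 12 of the 33 were lower (11.4% of all genes) and 3 were higher (6.54%). The median over the 33 genes was -0.10, beside -0.01 over all genes. For 32 of the 33 the 95% confidence interval of the mean lay within 2-fold in either direction, as for 95.8% of all genes.

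**Figure D1:**
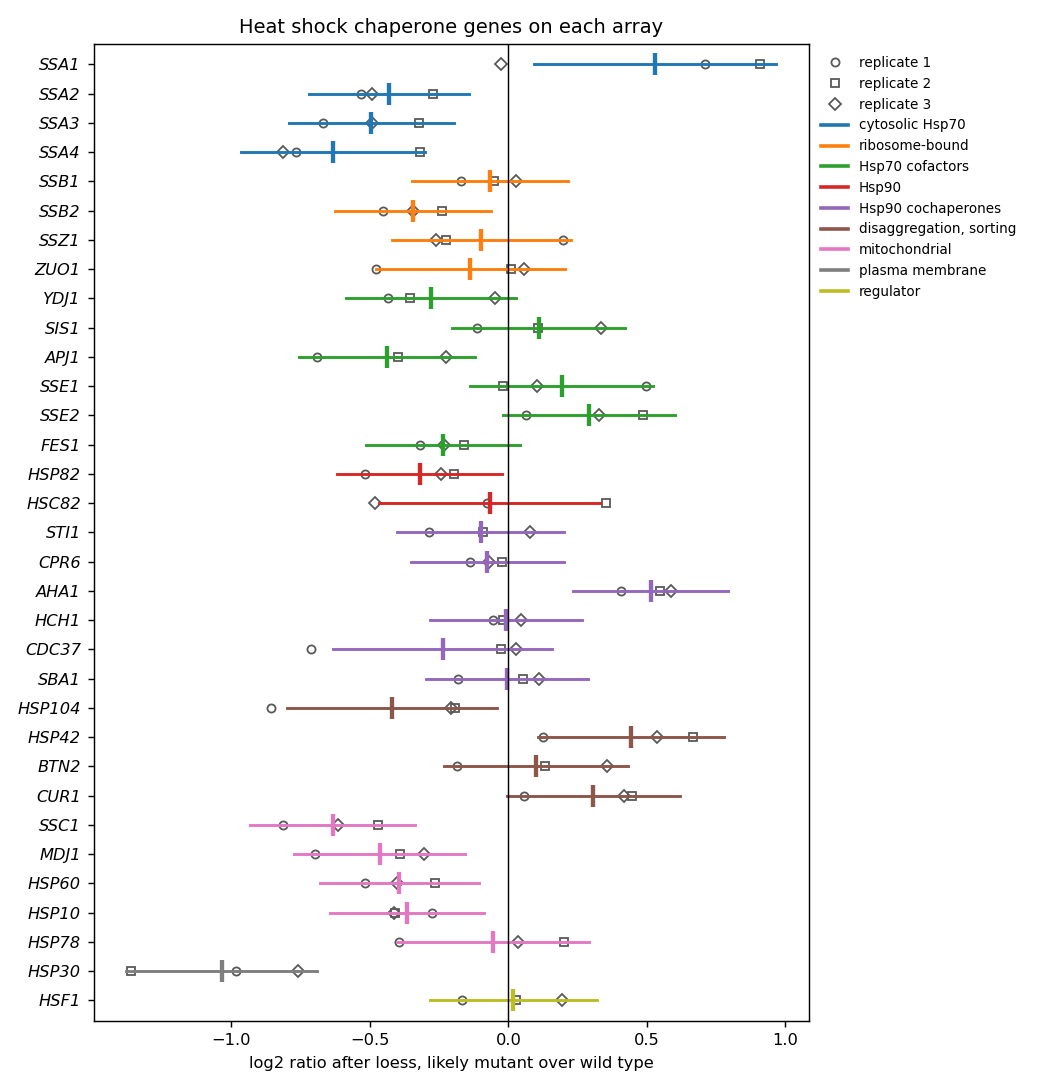
Log2 ratio (x axis, after loess, likely mutant over wild type) of the 33 genes (y axis) by role. Open symbols are the 3 arrays, thick ticks the means and horizontal lines the 95% confidence intervals of limma's fit; HSP30 stands lowest, with a mean of -1.03.

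HSP30 (YCR021C) encodes a plasma membrane protein induced by several stresses, known as a brake on the proton pump Pma1 rather than as a chaperone. Its ratios were -0.98, -1.36 and -0.76, below 0 on every array. The mean was -1.03 ± 0.15 (SE, n = 3; limma, adjusted p = 0.0129), with a 95% confidence interval from -1.38 to -0.69. Both of its spots were low on each array, at -0.93 and -1.03 on replicate 1, -1.24 and -1.48 on replicate 2 and -0.80 and -0.71 on replicate 3. HSP30 no longer passed without replicate 2, where its mean was -0.87 (limma, adjusted p = 0.130), with arrays scaled to 1 spread (-1.16) or at an adjusted p under 0.01. With the unmoderated statistic it did not pass either, but there 0 of all 5539 genes did.

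The 4 cytosolic Hsp70 genes SSA1 to SSA4 did not share a value. SSA3 and SSA4 are the stress-induced pair, nearly silent in unstressed cells. SSA4 (YER103W) had ratios of -0.77, -0.32 and -0.81. SSA3 (YBL075C) had -0.67, -0.32 and -0.49. SSA2 (YLL024C), made at a high level in growing cells, had -0.53, -0.27 and -0.49. These 3 genes were below 0 on every array, with replicate 2 nearest to 0 in each. None passed by limma, with a mean of -0.63 ± 0.14 for SSA4 (adjusted p = 0.0825), -0.49 ± 0.13 for SSA3 (adjusted p = 0.114) and -0.43 ± 0.12 for SSA2 (adjusted p = 0.146). SSA4 did pass with block medians after loess (-0.81), with quantile normalization (-0.62), with scaled arrays (-0.61), with spots as technical replicates and with a variance trend. SSA3 passed with quantile normalization, spots as technical replicates and a variance trend (-0.49 in each), and SSA2 with spots as technical replicates (-0.43). SSA1 (YAL005C), which heat induces above a steady level, had 0.71, 0.91 and -0.03. It was high on replicates 1 and 2 only, and its mean of 0.53 ± 0.19 did not pass (limma, adjusted p = 0.206), but did with a loess span of 0.7 and without replicate 3 (0.81 in both).

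Chaperones that ride on the ribosome and bind the emerging chain lay closer to 0. SSB2 (YNL209W), an Hsp70 of this class, had -0.45, -0.24 and -0.34 and a mean of -0.35. Its near-identical partner SSB1 (YDL229W) had -0.17, -0.05 and 0.03. SSZ1 (YHR064C), an atypical Hsp70, had 0.20, -0.23 and -0.26, and its J-domain partner ZUO1 (YGR285C) had -0.48, 0.01 and 0.06. Only SSB2 was on the same side of 0 on all 3 arrays. None of the 4 passed, and their median was -0.12.

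Partners of Hsp70 stood on both sides of 0. Among the J-domain genes, APJ1 (YNL077W) was low on each array, at -0.69, -0.40 and -0.22. YDJ1 (YNL064C), the main cytosolic Hsp40, had -0.43, -0.36 and -0.05. SIS1 (YNL007C), an essential Hsp40 that also restrains Hsf1, had -0.11, 0.11 and 0.33. These 3 genes had their lowest value on replicate 1. FES1 (YBR101C), a nucleotide exchange factor, had -0.32, -0.16 and -0.23. SSE1 (YPL106C), an exchange factor of the Hsp110 class, had 0.50, -0.02 and 0.10, and its paralog SSE2 (YBR169C) had 0.06, 0.49 and 0.33. FES1 was therefore low and SSE2 high on every array, yet none of the 6 genes passed. Their means ran from -0.44 (APJ1) to 0.29 (SSE2), with a median of -0.06.

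The Hsp90 genes themselves had small ratios. HSP82 (YPL240C), the heat-induced form, had -0.52, -0.20 and -0.24 and a mean of -0.32 ± 0.13 (limma, adjusted p = 0.245). HSC82 (YMR186W), the form made at a steady level, had -0.08, 0.35 and -0.48. It took both signs, and its mean was -0.07.

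Of the 6 Hsp90 cochaperones, AHA1 (YDR214W) stood apart in value. It encodes the activator of the Hsp90 ATPase and had 0.41, 0.55 and 0.59, above 0 on every array. Its mean of 0.51 ± 0.12 did not pass (limma, adjusted p = 0.0906), but did with quantile normalization (0.59), with spots as technical replicates and with loess on a signal averaged over spots and arrays (0.60). Its paralog HCH1 (YNL281W) had -0.06, -0.02 and 0.05. STI1 (YOR027W), which links Hsp70 to Hsp90, had -0.29, -0.09 and 0.08. CPR6 (YLR216C), a cyclophilin, had -0.14, -0.02 and -0.07. These 3 genes stayed within 0.3 of 0 on all arrays. CDC37 (YDR168W), the kinase-specific cochaperone, had -0.71, -0.03 and 0.03 and a mean of -0.24. Replicate 1 was far below the other arrays after loess, but less so in the deposited ratios of CDC37 (-1.46, -1.22 and -1.19). SBA1 (YKL117W), the p23 cochaperone, had -0.18, 0.05 and 0.11 and a mean of -0.01. The median over the 6 was -0.04.

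Genes that handle aggregates differed in sign. HSP104 (YLL026W), the disaggregase, had -0.86, -0.19 and -0.21 and a mean of -0.42. Replicate 1 was far below the other arrays after loess only, as its deposited ratios were -1.39, -1.12 and -1.32. HSP42 (YDR171W), a small heat shock protein that gathers misfolded proteins, had 0.12, 0.67 and 0.54 and a mean of 0.44 ± 0.14 (limma, adjusted p = 0.176). CUR1 (YPR158W) had 0.05, 0.45 and 0.42, and its paralog BTN2 (YGR142W), a sorting factor for misfolded proteins, had -0.19, 0.13 and 0.35. HSP42 and CUR1 were above 0 on every array, HSP104 was below 0 on every array, and none of the 4 passed.

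The mitochondrial chaperones had the lowest median of the roles with more than 1 gene after the cytosolic Hsp70 genes, at -0.39 against -0.46. Of the 5, 4 were below 0 on all 3 arrays, against 23.1% of all genes. All 5 had a signal above that of 90% of all genes, and 41% of such bright genes were below 0 on all 3. SSC1 (YJR045C), the matrix Hsp70 and motor of protein import, had -0.81, -0.47 and -0.61. Its mean of -0.63 ± 0.13 just missed the threshold (limma, adjusted p = 0.0570). Its J-domain partner MDJ1 (YFL016C) had -0.70, -0.39 and -0.30. The chaperonin gene HSP60 (YLR259C) had -0.52, -0.26 and -0.40, and its lid HSP10 (YOR020C) had -0.28, -0.41 and -0.41. Low values thus recurred across the arrays in SSC1, MDJ1, HSP60 and HSP10. HSP78 (YDR258C), the matrix relative of Hsp104, had -0.40, 0.20 and 0.03 and took both signs. SSC1 passed with block medians (-0.60), with quantile normalization (-0.63), with scaled arrays (-0.62), with spots as technical replicates, with a variance trend and with the dimmest 25% of genes left out. MDJ1 passed with quantile normalization (-0.47).

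HSF1 (YGL073W), the regulator, had -0.17, 0.03 and 0.19. Its mean of 0.02 ± 0.13 (limma, adjusted p = 0.957) had a 95% confidence interval from -0.28 to 0.32. These are transcript ratios, and the activity of Hsf1 was not measured.

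The chaperone genes were among the brightest on the arrays, and the number called depended on how the trend of ratio with signal was handled. Of the 33, 27 had a mean recovered signal above that of 90% of all genes. In the deposited values, before any normalization, the brightest 10% of spots had median log2 ratios of -1.12, -1.19 and -1.32 on the 3 arrays, against 0.04, -0.64 and -0.31 in the dimmest 10%. All 33 chaperone genes were below 0 on every array in the deposited values, as were 81.9% of all genes. The loess step took out most of this trend, and median centring of each array leaves it in. After loess the median over the 554 genes brighter than 90% of all genes was still -0.08, beside -0.01 over all genes.

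**Figure D2:**
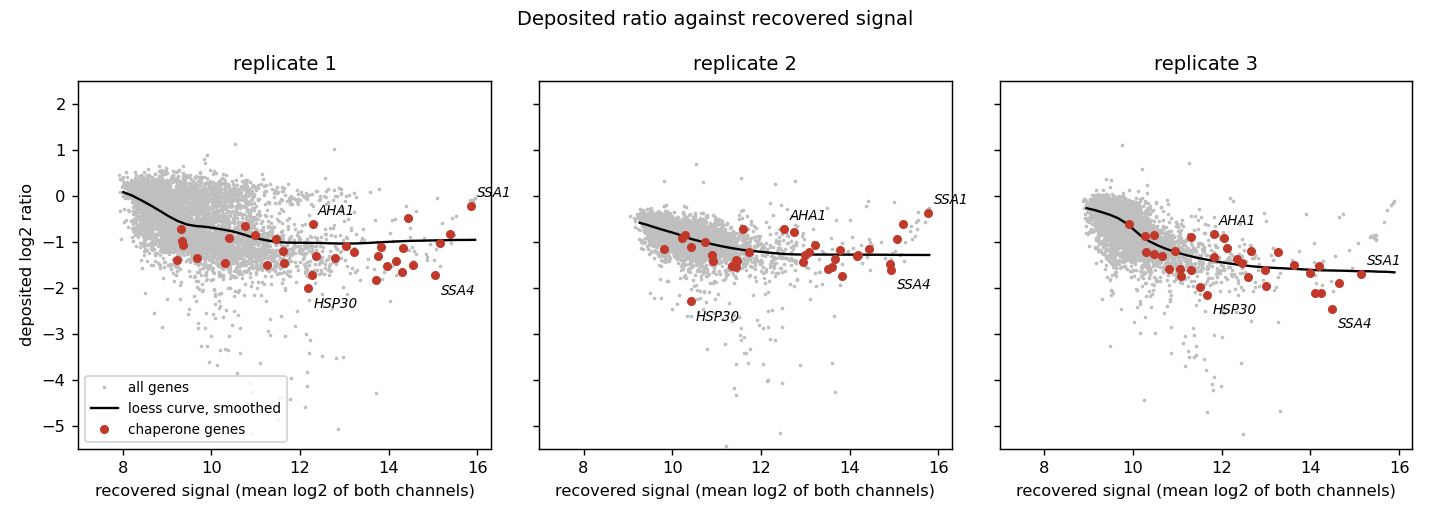
Deposited log2 ratio (y axis) against the recovered signal, the mean log2 of both channels (x axis), for all genes (grey) and the 33 chaperone genes (red) on each array, with the loess curve (black). Most chaperone genes lie at the bright end, where the curve is below 0; HSP30 lies below the curve and AHA1 above it on each array.

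With median centring 24 of the 33 genes passed as lower and 0 as higher (limma), against 17.8% and 4.28% of all genes. Among the 554 genes brighter than 90% of all genes, 71.1% passed as lower under this centring, beside 22 of the 27 chaperone genes there. The median centred ratio was -0.72 over those 27 chaperone genes and -0.58 over the 554. After loess the medians were -0.10 and -0.08, and 1 of the 27 passed as lower, against 7.94% of the 554. The test under median centring gave every gene the same standard error of 0.17, since limma pooled the variance fully over genes.

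The 9 chaperone genes that did not pass under median centring were SSA1, SSB1, SSZ1, ZUO1, SSE2, AHA1, HSP42, CUR1 and HSF1. Centred means were -1.50 for HSP30, -1.29 for SSA4, -1.21 for SSC1, -1.14 for SSA3 and -1.03 for HSP60. HSP30 was thus lowest on both scales, followed by SSA4, SSC1 and SSA3. At the other end AHA1 (-0.08), SSB1 (-0.11), SSA1 (-0.13) and HSP42 (-0.14) were nearest to 0. SIS1 (-0.52), SSE1 (-0.46) and BTN2 (-0.55) passed as lower with median centring but had means of 0.11, 0.19 and 0.10 after loess.

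**Figure D3:**
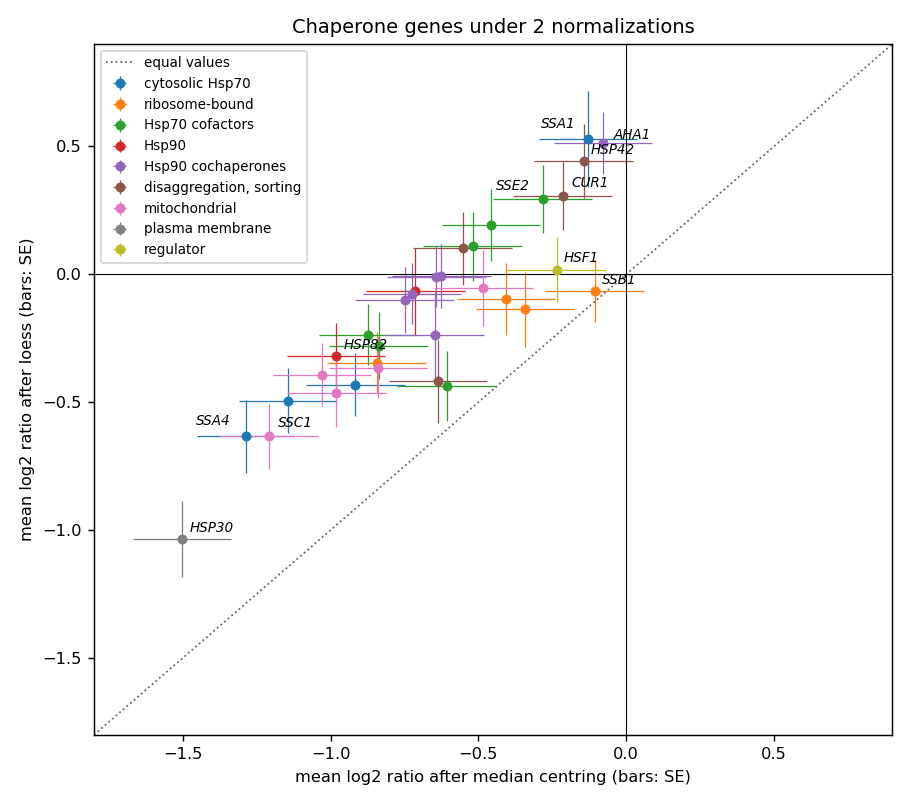
Mean log2 ratio of each chaperone gene after loess (y axis) against that after median centring (x axis), with standard errors as bars, coloured by role. All points lie above the dotted line of equal values; HSP30 is lowest on both axes (-1.03 and -1.50).

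After loess 15 of the 33 genes were below 0 on all 3 arrays, against 23.1% of all genes, and 4 were above 0 on all 3, against 20.4%. Among the 554 bright genes 41% were below 0 on all 3, beside 13 of the 27 chaperone genes there. Replicate 1 had the lowest median over the chaperone genes (-0.29, against -0.05 on each of replicates 2 and 3), and 26 of the 33 were below 0 on it. The median over all genes was also lowest there, at -0.07. In the deposited values and with median centring the chaperone median was lowest on replicate 3 instead (-1.51 and -0.96). Duplicate spots of a chaperone gene differed by a median of 0.03, 0.05 and 0.05 on the 3 arrays, and at most by 0.35 (SSB1, replicate 1). The SD between arrays was larger, with a median of 0.21 over the 33 genes and 0.20 over all genes. It ran from 0.05 for HCH1 to 0.49 for SSA1. Across the 33 genes the arrays correlated with r = 0.764 (replicates 1 and 2), 0.637 (1 and 3) and 0.724 (2 and 3), and across all genes with 0.535, 0.510 and 0.675, a description over genes that share each array and its loess curve.

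The brightest chaperone spots came close to the top of the scanner's scale. No spot needed a number above 65535, the largest a 16-bit scale can hold, to express its ratio. SSA1 had recovered signals of 64208, 64040 and 65424 in the likely wild-type channel, close to this limit on all 3 arrays, with 1 of its 6 spots at 65535. In the other channel it had 55052, 49265 and 20056, and its deposited ratios were -0.22, -0.38 and -1.71. SSA4 had wild-type signals of 61738, 54896 and 53655, and HSP82 (40260, 51246 and 49471) and HSC82 (52002, 47720 and 39848) also came near the limit. HSP42 did so on replicates 1 and 2 (56543 and 47562), but had 5789 on replicate 3. Whether an error of the recovery lies behind this difference was not tested. Spots with a signal over 50000 in either channel, a limit chosen after seeing the data, made up 7, 7 and 4 of the 66 chaperone spots on the 3 arrays, against at most 0.345% of all spots. Without these spots HSP30 was still the only one of the 33 genes called, and SSA1 and SSA4, all of whose spots lay above that limit, could not be fitted.

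**Figure D4:**
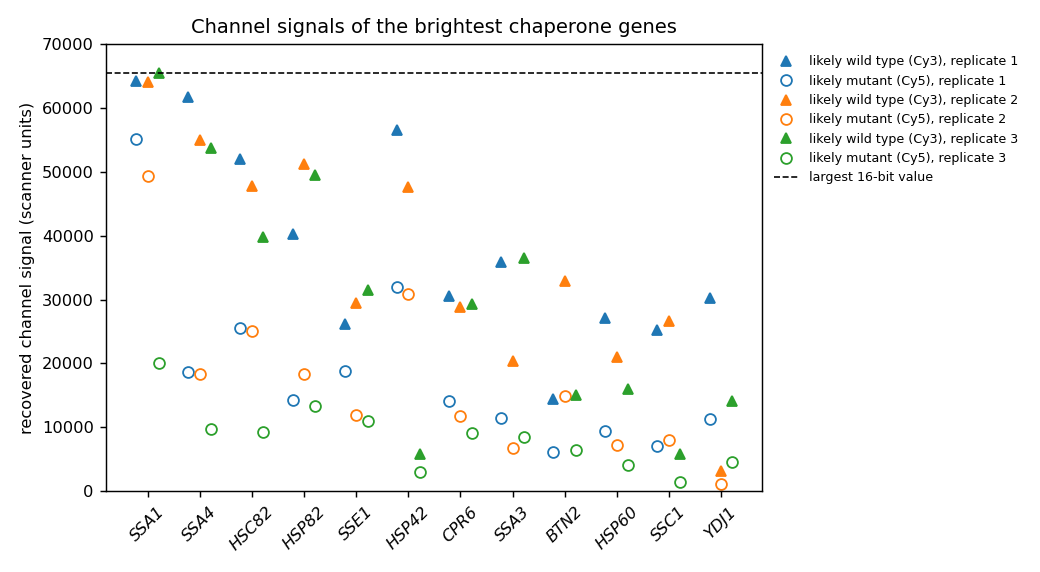
Recovered signal in scanner units (y axis) of the chaperone genes with a likely wild-type signal above 25000 on any array (x axis), with triangles for the likely wild-type channel and open circles for the likely mutant channel, coloured by array. The wild-type signals of SSA1 lie between 64040 and 65424, close to the dashed line of the largest 16-bit value, on all 3 arrays.

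Paralogs were compared within arrays, as the difference of their ratios. Over 7 pairs an exact sign-flip test across 3 arrays cannot go below p = 0.25, so none could pass. SSA1 was above SSA2 by 1.24, 1.18 and 0.46, AHA1 above HCH1 by 0.46, 0.57 and 0.54, and SSB1 above SSB2 by 0.28, 0.19 and 0.37. In these 3 pairs the sign was the same on every array (exact, two-sided p = 0.25, adjusted p = 0.438 each). The wild-type signals of SSA1 were close to the top of the scale, and their part in its difference from SSA2 was not tested. BTN2 was below CUR1 on every array too (mean difference -0.21, exact p = 0.25). SSA3 and SSA4 (0.14), HSP82 and HSC82 (-0.25) and SSE1 and SSE2 (-0.10) took both signs over the arrays. SSA1 and SSA2, SSB1 and SSB2, and HSP82 and HSC82 are near-identical in sequence, so each spot may read both transcripts of its pair, which was not tested.

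Other genes of protein folding and its control were read from a list of 38, of which 37 were measured. None was called in either direction (limma), while 4 were lower and 2 higher at an unadjusted p under 0.05. Their median was 0.04. The largest mean was that of CNS1, an essential Hsp90 cochaperone, at 0.53, 0.47 and 0.55 on the 3 arrays (mean 0.52 ± 0.12; limma, adjusted p = 0.0832). Next were MSN4, a general stress factor (0.43), SNL1, a membrane-bound partner of Hsp70 (0.38), and BTT1, of the nascent-chain complex (0.37). CNS1, MSN4 and SNL1 were above 0 on every array. The 4 lower ones at an unadjusted p under 0.05 were UBI4 (-0.36) and the mitochondrial genes MCX1 (-0.36), PIM1 (-0.35) and TIM44 (-0.32). All 4 were below 0 on every array. Of all genes, 11.4% were lower and 6.54% higher at that p. The 12 other mitochondrial genes had a median of -0.09 and the 6 other Hsp90 cochaperones one of 0.16. The Yap1 partner SKN7 had -0.07 and the stress factor MSN2 had -0.18. With median centring 10 of the 37 passed as lower and 0 as higher (limma), against 17.8% and 4.28% of all genes. Among the 554 bright genes 71.1% passed as lower under this centring.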

How the data were processed

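Per the labels, mutant and wild-type RNA were hybridised together on 3 arrays. The deposited log2 ratios, 1 for each of 13056 spots per array, had no stated normalization. The scanner and background handling were not given in the sources used here. Array medians were -0.52, -0.85 and -0.55. As powers of 2, 100% of the values were ratios of whole numbers (relative tolerance 1e-13), against at most 0.199% as powers of e or 10. Both signals were recovered from these numbers up to a factor, settled with the duplicate spot and the other arrays. On simulated signals 83.4%, 85.3% and 86.6% of spots came within 0.5 log2. These were built from the recovered signals with noise added, so the shares cannot show the error of the real ones. Some recovered wild-type signals differed widely between arrays, as for YDJ1 (30226, 3141 and 14122) and HSP78 (908, 13850 and 7238). Those of HSP42 (56543, 47562 and 5789) and SSC1 (25295, 26708 and 5812) did so too. Whether a wrong factor lies behind this was not tested, and a spot's loess ratio depends on its recovered signal. This recovery was written anew here, and counts of called genes (91 lower, 19 higher) depend on it, as may calls near the threshold, such as those of SSA4, SSC1 and YAP1. Loess (span 0.3), averaging of spots per gene, and limma 3.58.1 (lmFit, eBayes, mean against 0, two-sided) in R 4.3.3 followed, checked on simulated arrays. Python 3.11.15, numpy 2.4.6, pandas 2.3.3 and matplotlib 3.10.9 were used. Symbols were those of the platform annotation, and systematic names from RefSeq's R64 table. All 33 genes are named; those passing under loess or median centring have every array's value. The members, lists and tests were chosen with earlier results of these data known. Sequences and probe positions were not used here. The number of arrays limits the precision.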

Additional observations from a re-analysis of the deposited data

How the results depend on the processing

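The count of chaperone genes passing as lower, 1 after loess, was 33 on the deposited scale, 24 with median centring, 5 with quantile normalization, 5 with spots as technical replicates, 4 with a variance trend, 3 with block medians, 2 with scaled arrays, 2 with the dimmest 25% of genes left out, and 0 with the unmoderated statistic or at an adjusted p under 0.01; leaving out 1 array gave 0 to 1. Passing as higher, 0 after loess, was 1 gene with quantile normalization, spots as technical replicates and loess on signal averaged over spots and arrays (AHA1 in each), and with a span of 0.7 (SSA1, 0.81); leaving out 1 array gave 0 to 1 (SSA1 without replicate 3). The chaperone median moved to -1.28 on the deposited scale and -0.64 with median centring, was -0.22 with normexp before loess, where HSP30 still passed (-1.60), and lay between -0.21 and -0.04 when 1 array was left out. YAP1 passed on the deposited scale (-1.94), with median centring (-1.30), block medians (-1.05), quantile normalization (-0.93), a span of 0.7 (-0.87), and a variance trend or the dimmest 25% of genes left out (-0.85 in both); leaving out 1 array gave -1.13 to -0.67, and it passed without replicate 1 and without replicate 3 but not without replicate 2. The sign turned, with a call, for SIS1 (-0.52), SSE1 (-0.46) and BTN2 (-0.55) with median centring, and on the deposited scale SSA1 (-0.77), SIS1 (-1.16), SSE1 (-1.10), SSE2 (-0.92), AHA1 (-0.72), HSP42 (-0.78), BTN2 (-1.19), CUR1 (-0.86) and HSF1 (-0.88). Both scales keep the trend of ratio with signal, and the deposited scale also keeps the array medians of -0.52, -0.85 and -0.55. The cause of the sign turns and of the other changes was not tested. Without replicate 3 the 33 genes and YAP1 all had the same standard error of 0.23, so a gene's own spread between arrays did not count there. Over all genes, 91 lower and 19 higher became 984 and 237 with median centring, 4191 and 1 on the deposited scale, and 264 and 113 with quantile normalization; genes lower numbered 202 of 5510 with spots as technical replicates, 130 with a variance trend, 130 with block medians, 175 with scaled arrays and 125 of 4154 with the dimmest 25% left out. With the unmoderated statistic 0 of all 5539 genes passed in either direction, so that setting does not set the chaperone genes apart. At an adjusted p under 0.01, 53 of all genes were lower and 9 higher. Without replicates 1, 2 and 3 in turn, 93, 43 and 146 of all genes were lower. Leaving out bright spots and averaging the signal were chosen after seeing the data. No paired analysis was possible because there is 1 group of arrays, and each ratio already pairs both strains within an array.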
